A study of Mus musculus with 5 samples.

Results

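Collagens are the triple-helical proteins of the extracellular matrix, and their genes were followed here across the cells of the mouse heart. The members are all genes whose symbol is Col, a number, the letter a and a number. 44 genes matched, and the 35 with at least 100 unique molecular identifiers (UMIs, counted mRNA molecules) over all barcodes are described. Together the 44 genes gave 834255 UMIs, 0.409% of all UMIs. Just inside the limit was Col7a1 with 103 UMIs, and just outside it was Col17a1 with 58.

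The study sequenced single cells from digested mouse hearts with the 10x Genomics 5′ kit, which reads transcripts from their 5′ end. Control replicates 1 and 2 came from Ctla4+/+Pdcd1-/- mice (n = 4), and disease replicates 3, 4 and 5 from Ctla4+/-Pdcd1-/- mice (n = 10), used as a model of myocarditis under immune checkpoint inhibitors. Every mouse thus lacked Pdcd1, the controls included, and the groups differ in 1 copy of Ctla4. Hearts were pooled before sorting for DRAQ5+DAPI- cells, so p-values measure the spread between libraries and not between animals. The genotype and dye labels of some libraries count upward (Pdcd2-/-, Pdcd3-/-, DRAQ6 to DRAQ9), while the series' design text gives Pdcd1-/- and DRAQ5 for all, which was followed here. Ages and sexes were not used here.

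The 5 files held 24991704 to 55053988 UMIs each, and 38312 of 47319 barcodes were retained. Barcodes were put in 5 classes by marker UMIs, none of them a collagen gene. The classes were fibroblast (10887 barcodes, 1377 to 3298 a library), endothelial (12297, 1887 to 2955), leukocyte (9870, 868 to 4652), mural (343, 52 to 91) and Schwann (114, 20 to 33). Together they took 87.5% of the retained barcodes. Pairs of libraries shared 53 to 104 retained barcode sequences. Pdcd1 had 74 to 13750 UMIs in each library and Ctla4 34 to 8642, and the labels do not say which part of Pdcd1 is missing, so these rows do not check the genotypes.

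Fibrillar collagens such as types I, III and V assemble into the tension-bearing fibres between heart muscle cells and are secreted mainly by fibroblasts. Type IV collagen forms the sheet-like network of basement membranes under endothelium and around muscle, pericytes and Schwann cells, and type VI forms beaded filaments between fibres and basement membranes. Most collagen molecules are trimers, so the balance of chains matters: type I takes a pair of alpha 1 chains with a single alpha 2 chain, as does type IV in most basement membranes.

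All 6 type IV genes lie in head-to-head pairs that run outward from a common stretch of DNA. In GRCm38, Col4a1 (chromosome 8, 11198423 to 11312826, minus strand) and Col4a2 (11312805 to 11449287, plus strand) overlap by 22 bases at their 5′ ends, so a read that lies wholly there needs the strand to be assigned. Col4a6 and Col4a5 on chromosome X are 1308 bases apart. Col4a4 (chromosome 1, 82448423 to 82586849, minus strand) and Col4a3 (82586921 to 82722059, plus strand) are 71 bases apart. This gap is shown because both genes start from it. As given below, both had most of their gated UMIs in fibroblast barcodes. Many other members did too, such as Col1a1 (98.5%) and Col6a6 (98.3%), so the shared class does not mark out this pair. The gap is read on the plus strand, GRCm38 chr1:82586850-82586920, with G and C in capitals, from RefSeq's promoter table for GRCm38.p6.
Col4a4 to Col4a3 gap: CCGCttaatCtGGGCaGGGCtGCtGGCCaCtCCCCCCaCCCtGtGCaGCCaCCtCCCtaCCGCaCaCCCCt

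The starts of 3 further genes are shown because 5′ libraries count a gene through the first part of its transcript, and the disease differences in fibroblasts described below ran with the G and C content there. Each line gives the first 60 coding bases of the GENCODE vM21 transcript, with G and C in capitals. Col5a3 is read from chr9:20814894-20814953 (minus strand) and Col8a1 from chr16:57632579-57632638 (minus strand). The Col15a1 bases come from 2 exons within chr4:47208352-47208494 (plus strand).
Col5a3: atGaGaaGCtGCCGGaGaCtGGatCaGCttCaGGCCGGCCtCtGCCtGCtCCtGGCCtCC
Col15a1: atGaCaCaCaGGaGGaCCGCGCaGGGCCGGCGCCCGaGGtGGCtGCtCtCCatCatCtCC
Col8a1: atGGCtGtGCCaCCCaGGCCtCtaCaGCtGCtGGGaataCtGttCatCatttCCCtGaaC
G and C made up 65.0% of these bases in Col5a3, 68.3% in Col15a1 and 53.3% in Col8a1. Over the first 300 transcript bases the values were 65.0%, 74.7% and 52.7%.

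The first question was which cells carried which collagen. Collagen UMIs were 0.825% to 1.14% of all UMIs in fibroblast barcodes and 0.347% to 0.541% in Schwann barcodes. They were 0.139% to 0.174% in endothelial, 0.106% to 0.153% in mural and 0.0105% to 0.0165% in leukocyte barcodes. The ranges of the mural and endothelial libraries overlap, and those of the other neighbours in this order do not. Levels below are CPM, counts scaled to 1000000 UMIs of the class in a library. A 5′ UMI stands for a transcript whatever its length, so levels need no correction for length, and other differences in capture between genes were not tested.

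**Figure D1:**
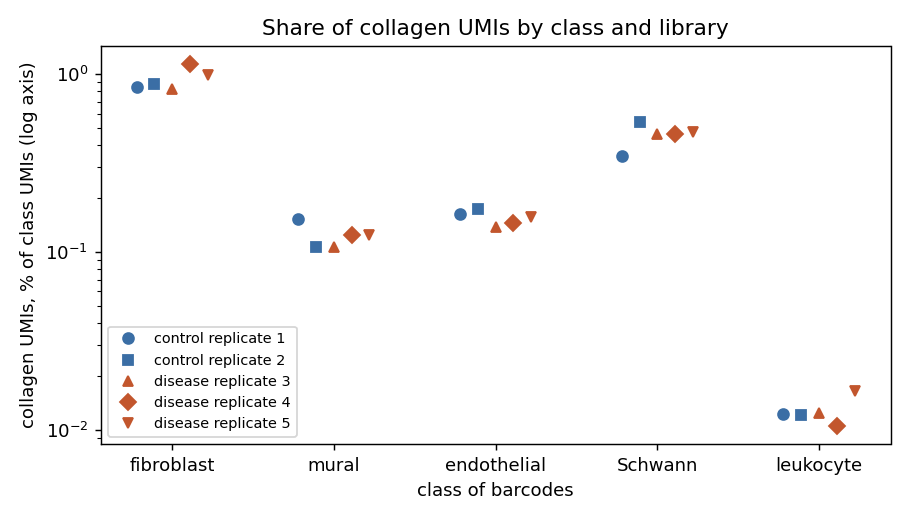
Collagen UMIs as a percentage of all UMIs of a class (log axis) in each of the 5 libraries, by class. Fibroblast libraries lie between 0.825% and 1.14% and leukocyte libraries between 0.0105% and 0.0165%.

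Fibroblast barcodes carried the fibrillar genes. Col3a1, the single chain of type III collagen, had 1815 ± 497 CPM (SD, n = 5 libraries), Col1a2 1269 ± 277 CPM and Col1a1 1216 ± 217 CPM, and together these 3 genes were 45.5% of the class's collagen UMIs. Fibrillar genes as a family made up 53.0% ± 3.3 (SD, n = 5) of them and type VI genes 21.2% ± 0.89, where Schwann barcodes had 55.3% ± 3.3 and 7.13% ± 1.8. Col6a2 with 828 ± 145 CPM and Col6a1 with 816 ± 145 CPM were near each other in every library, and Col6a3, the long alpha 3 chain, had 294 ± 27.3 CPM. Next came Col15a1, a chain with a cleavable end domain found next to basement membranes, with 759 ± 116 CPM, Col4a1, a basement membrane chain, with 476 ± 83.3 CPM, and Col8a1, a short network-forming chain, with 454 ± 110 CPM. Of all gated UMIs of Col1a1, a mean of 98.5% lay in fibroblast barcodes, and the same share was 97.7% for Col3a1, 98.2% for Col6a1 and 93.9% for Col15a1.

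Of the 5 classes, fibroblasts also had the highest mean levels of the minor type IV chains. Col4a4 had 78.4 ± 7.81 CPM, Col4a5 43.8 ± 4.93 CPM, Col4a3 29.3 ± 4.05 CPM and Col4a6 7.07 ± 2.73 CPM in fibroblast barcodes. In endothelial barcodes the same genes had 2.66, 1.10, 1.70 and 0.160 CPM on average. Mural barcodes had 4.47%, 45.1%, 9.78% and 52.4% of the fibroblast level in the same order. The mural Col4a6 value rests on 6 UMIs and was 27.9% to 141% over libraries. Between 95.1% (Col4a3) and 96.7% (Col4a4) of the gated UMIs of these chains lay in fibroblast barcodes. These chains form the alternative type IV networks known from kidney, and Col4a3 and Col4a4 start on either side of the gap printed above.

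Endothelial barcodes had the highest levels of Col4a1 and Col4a2 among the 5 classes. Col4a1 had 904 and 1017 CPM in control and 719, 786 and 821 CPM in disease libraries. Col4a2 had 508 and 519 CPM and then 432, 452 and 482 CPM. Of the gated Col4a1 UMIs a mean of 50.8% lay in endothelial and 47.3% in fibroblast barcodes. For Col4a2 these shares were 58.4% and 39.5%. Type IV genes were 85.3% ± 2.3 (SD, n = 5) of the endothelial collagen UMIs. Against fibroblast barcodes of the same libraries, 5 of the 32 members tested were higher and 24 lower (edgeR's quasi-likelihood test with library as a block, Benjamini-Hochberg adjusted p under 0.05, beside 35.1% of all 13533 genes higher and 32.3% lower). The 5 were Col4a1 (log2 difference 0.81, SE 0.11), Col4a2 (1.29, SE 0.13), the transmembrane collagens Col13a1 (3.45, SE 0.34) and Col25a1 (1.95, SE 0.33), and Col28a1 (3.71, SE 0.45). The last 3 were sparse, with 4.20, 2.15 and 2.60 CPM on average. Fibroblast barcodes still held Col4a1 at 476 ± 83.3 CPM, 56.0% of the endothelial level, whereas of the 10 endothelial markers 9 stood there at 1.35% to 3.20% of theirs and Eng at 22.2%.

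Schwann barcodes, the glia of the heart's nerves, had a collagen profile of their own. Col3a1 led with 840, 1323, 987, 1258 and 955 CPM in the 5 libraries, although the fibroblast markers Dcn and Lum stood at 1.23% and 1.50% of their fibroblast level and Col3a1 at 59.1%. Of the 8 fibroblast markers 1, Abi3bp, was high in this class, at 63.8%. Of 32 members tested against fibroblasts, 7 were higher and 18 lower (edgeR's quasi-likelihood test, beside 5.11% of genes higher and 17.6% lower). Col18a1, whose end fragment is endostatin, had 276 to 574 CPM against 14.2 to 20.8 CPM in fibroblasts (log2 difference 3.99, SE 0.27). Col16a1, a collagen that sits on the surface of fibrils, had 223 to 457 CPM against 26.3 to 37.2 CPM (2.59, SE 0.24). Both sets of libraries are far from overlapping. The fitted differences use TMM factors, which put the median gene at -0.63 for Schwann against fibroblast barcodes. With class totals in their place, an alternative added after seeing the data, the median gene was at -0.01, 10.1% of genes were higher and 7% lower, and 8 members were higher and 15 lower. Col18a1 then had 4.63 and Col16a1 3.21, while the lower calls of Col5a2 (-0.53, adjusted p = 0.184) and Col4a2 (-0.42, adjusted p = 0.292) were lost, as was that of Col4a6.

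Rarer genes completed the Schwann profile. Col28a1, described in peripheral nerve, gave 20 UMIs in 114 Schwann barcodes against 11 UMIs in 10887 fibroblast barcodes (log2 difference 7.68, SE 0.73). Its levels were 41.0, 59.4, 88.4, 132 and 0 CPM, so disease replicate 5 held none. Col20a1 (4.64, SE 0.49), Col9a3 (4.58, SE 0.68), Col12a1 (1.99, SE 0.52) and the fibrillar Col27a1 (1.41, SE 0.27) were the other 4 higher members, with Col9a3 at 0 in control replicate 2 and disease replicate 4. Col5a3, a chain of type V, had 247 ± 52.2 CPM (SD, n = 5) against 123 to 199 CPM in fibroblasts. Its log2 difference depended on the scaling, at 0.04 (SE 0.20) with TMM factors and 0.67 (SE 0.21, edgeR's quasi-likelihood adjusted p = 0.0281) with class totals. Col6a6, Col4a5 and Col4a3 had no UMI among the 330496 of this class. With a floor of 3 counts over the class, fibroblasts were at least 5.38-fold higher for Col6a6, at least 4.76-fold for Col4a5 and at least 3.13-fold for Col4a3. Col4a6, Col8a2, Col13a1 and Col11a2 were also at 0, but their level elsewhere is under that floor, so no fold is given. With 20 barcodes in 3 of the 5 libraries, the depth of this class limits each of these values.

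**Figure D2:**
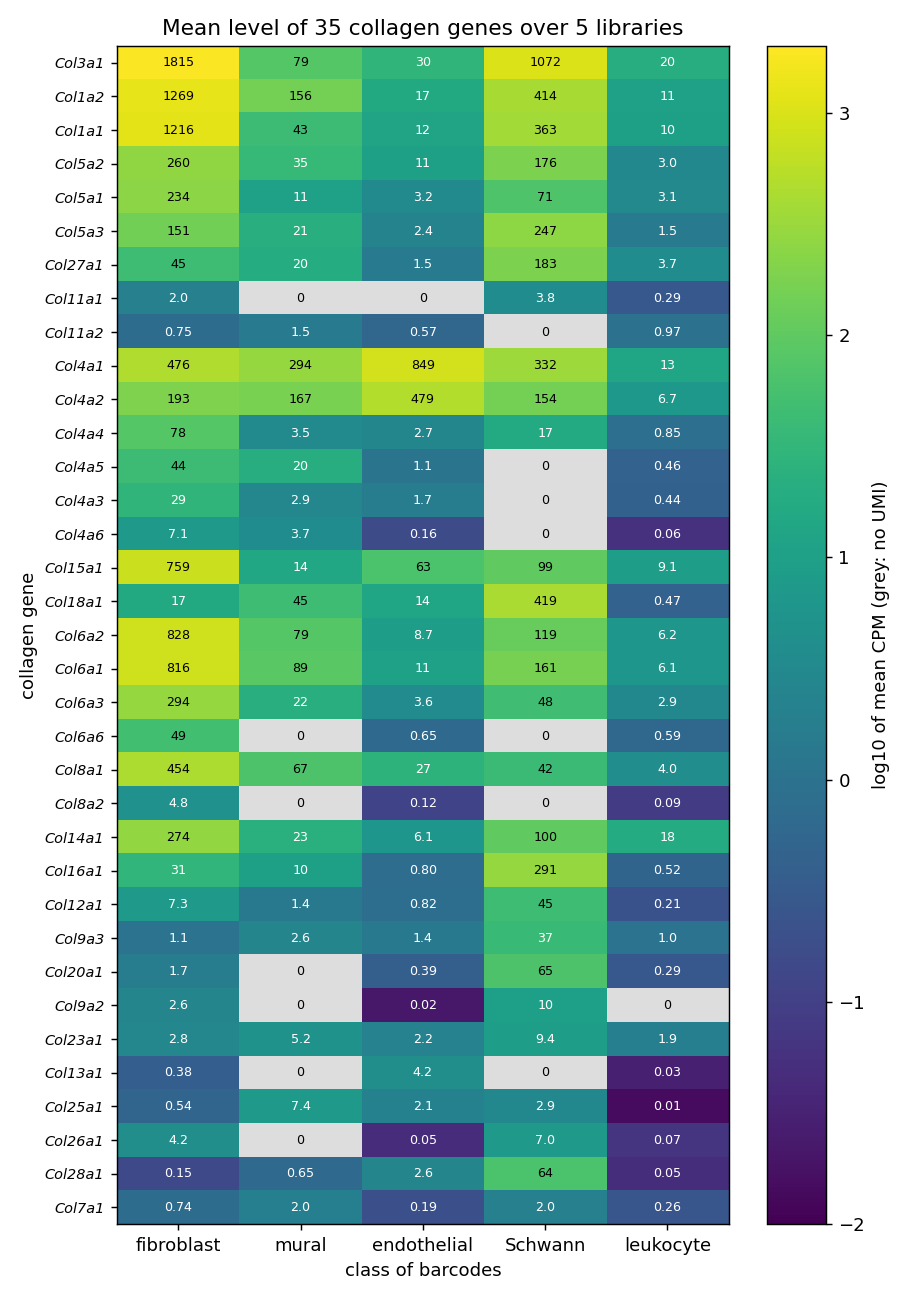
Mean CPM over the 5 libraries of the 35 collagen genes (rows, grouped by family) in the 5 classes (columns), coloured on a log10 scale, with grey where a class had no UMI. Fibroblast barcodes hold the highest Col3a1, Col1a1, Col1a2, Col6a1 and Col6a2, endothelial barcodes the highest Col4a1 (849 CPM) and Schwann barcodes the highest Col18a1 (419 CPM) and, among fibrillar genes, the highest Col5a3 (247 CPM) and Col27a1.

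Mural barcodes (pericytes and smooth muscle) used type I collagen in other proportions. Col1a2 had 162, 139, 149, 169 and 161 CPM, while Col1a1 had 49.4, 35.5, 39.0, 33.1 and 56.0 CPM. The ratio of Col1a1 to Col1a2 UMIs was 0.273 ± 0.0576 (SD, n = 5) in mural and 0.964 ± 0.0442 in fibroblast barcodes, and it was lower in 5 of 5 libraries. A two-sided exact permutation test within libraries gave p = 0.0625, the smallest that 5 pairs allow, and 0.119 after adjustment over 19 such ratios. Endothelial barcodes had 0.740 ± 0.0969, also lower than fibroblast barcodes in 5 of 5 libraries. The same exact permutation test gave them the same result as mural barcodes, so the lower ratio was not particular to mural barcodes. Endothelial Col1a1 and Col1a2 stood at 1.01% and 1.31% of their fibroblast level, within the 0.999% to 2.69% of the 8 fibroblast markers there. The part of fibroblast RNA in the endothelial ratio was not tested. Leukocyte barcodes, which hold little collagen, had 0.883 ± 0.173, lower in 4 of 5 libraries. The ratio of Col4a1 to Col4a2 was 1.77 ± 0.115 in endothelial, 1.75 ± 0.249 in mural and 2.46 ± 0.191 in fibroblast barcodes. Leukocyte barcodes had 1.99 ± 0.258. The endothelial, mural and leukocyte values were each below the fibroblast value in 5 of 5 libraries (exact p = 0.0625 each, adjusted 0.119).

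Mural barcodes differed from fibroblasts in 25 of the 32 members tested, 2 higher and 23 lower (edgeR's quasi-likelihood test, beside 17.1% of genes higher and 20.2% lower). The 2 were Col18a1 (log2 difference 1.43, SE 0.28) and Col25a1 (3.81, SE 0.57), and both had their highest level in control replicate 1 (101 and 20.2 CPM), with Col25a1 at 0 in disease replicate 4. Without control replicate 1 the Col18a1 difference was 0.73 (adjusted p = 0.0622) and that of Col25a1 2.89. Col6a6 had no UMI in 1716639, which puts fibroblasts at least 27.9-fold higher. Against endothelial barcodes 17 members were higher and 4 lower (beside 16.3% and 22% of genes). Higher ones included Col1a2 (3.18, SE 0.15), Col4a5 (4.14, SE 0.43) and Col5a3 (3.03, SE 0.35), and Col4a1, Col4a2, Col15a1 and Col13a1 were lower. Mural barcodes held 10 of 10 endothelial markers, summed at 1358 to 2690 CPM against 9025 to 9748 CPM in endothelial barcodes, and their part in the mural Col4a1 (294 CPM) and Col4a2 (167 CPM) was not tested.

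Leukocyte barcodes measured how much collagen RNA appears in cells not known for it. The 8 fibroblast markers stood there at 0.741% to 1.51% of their fibroblast level, and Col1a1 (0.829%), Col1a2 (0.869%), Col6a1 (0.746%) and Col3a1 (1.11%) were within that range. Of 32 members tested, 29 were lower than in fibroblasts and none higher (edgeR's quasi-likelihood test, beside 38.2% of genes lower and 38.1% higher). Other members stood above the range of the markers. Col14a1, a fibril-associated collagen, had 6.60% of its fibroblast level and Col27a1 8.22%. Col4a2 had 3.48%, Col12a1 2.94%, Col18a1 2.77%, Col4a1 2.75%, Col8a2 1.78%, Col16a1 1.68% and Col26a1 1.58%. Against the endothelial level Col4a1 had 1.54% and Col4a2 1.40%, and the 10 endothelial markers stood at 0.427% to 3.44%. Of the 10 members with under 3 CPM in fibroblasts, Col11a2 had 130%, Col9a3 97.0%, Col23a1 69.1%, Col7a1 35.3%, Col28a1 33.1%, Col20a1 17.4% and Col11a1 14.5%, at leukocyte means of 0.0490 to 1.95 CPM, while Col13a1 had 7.63%, Col25a1 2.67% and Col9a2 no UMI. Thinned to 2000 UMIs, 1.67% to 4.39% of leukocyte barcodes had a Col14a1 UMI against 31.9% to 40.8% of fibroblast barcodes, and 1085 leukocyte and 415 fibroblast barcodes were too shallow to count. Unthinned, the shares were 4.21% to 10.0% and 59.8% to 65.8%.

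Of the 855 Col14a1 UMIs in leukocyte barcodes, 703 lay in the 3865 barcodes that held at least 2 of Csf1r, Adgre1, C1qa and Fcgr1, genes known from macrophages, and met the rule of no other leukocyte list. These were set against the 3548 barcodes with Cd3 genes, a comparison chosen after seeing the levels. Col14a1 was 22.6, 33.6, 32.2, 16.4 and 33.2 CPM in the former and 3.84, 0, 9.31, 3.21 and 3.39 CPM in the latter, so the 2 sets did not overlap. The log2 difference was 2.68 (SE 0.28, edgeR's quasi-likelihood adjusted p = 1.02e-06), and Col14a1 was the single call among 11 members tested (64.3% of genes called). There were 2 calls without control replicate 2, disease replicate 3 or disease replicate 4, where Col15a1 or Col27a1 joined it, and 4 with every gene that had a count. Col3a1 went the other way without a call, at 17.9 ± 6.21 CPM against 22.0 ± 4.01 CPM. The ratio of Col14a1 to Col3a1 UMIs was 0.953 to 2.85 in the Csf1r barcodes, 0 to 0.455 in the Cd3 barcodes and 0.110 to 0.224 in fibroblasts.

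**Figure D3:**
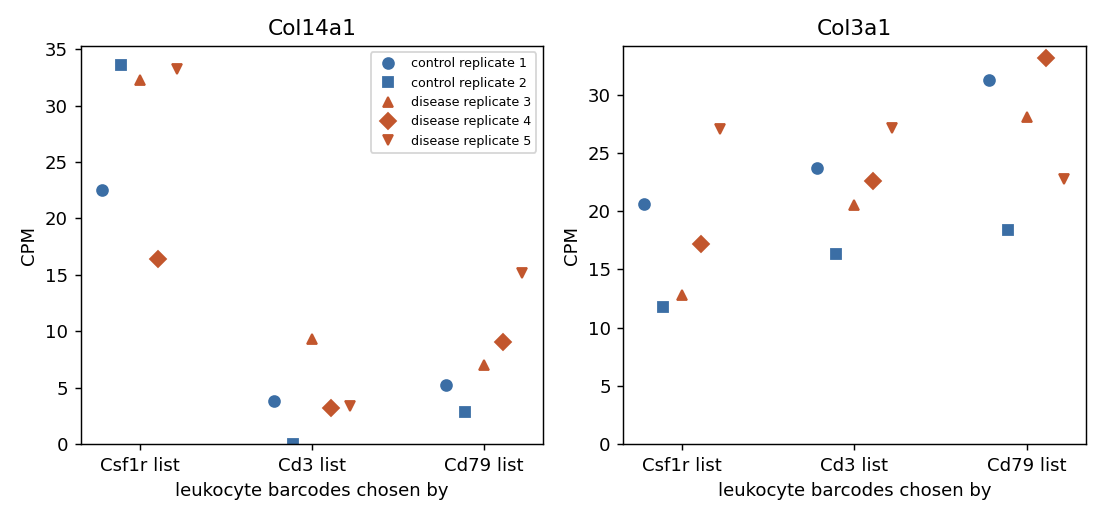
CPM of Col14a1 (left) and Col3a1 (right) in leukocyte barcodes chosen by Csf1r, Cd3 and Cd79 gene lists, 1 point for each of the 5 libraries. All 5 Col14a1 values of the Csf1r barcodes (16.4 to 33.6 CPM) are above all 5 of the Cd3 barcodes (0 to 9.31 CPM), while the Col3a1 values of these sets overlap.

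Fibroblast barcodes were not uniform. With at least 2 UMIs of Pi16, Dpp4 and Cd248, 6934 barcodes were set against 3035 others within libraries, with those in 2 sets left out (edgeR's quasi-likelihood test, 17% of genes higher and 15.4% lower), and 4 members were higher and 12 lower of 27 tested. The largest called differences were in lower genes. Col6a6, an additional type VI chain, had 36.7 to 46.1 CPM against 76.3 to 112 CPM (log2 difference -1.06, SE 0.06). Col11a1 (-1.81, SE 0.26), Col26a1 (-0.99, SE 0.21), Col23a1 (-0.94, SE 0.24) and Col27a1 (-0.90, SE 0.08) were lower too. Higher were Col8a1 (0.32, SE 0.05), Col14a1 (0.18, SE 0.05), Col6a2 (0.15, SE 0.05) and Col6a1 (0.12, SE 0.05), whose call was lost without any 1 of control replicates 1 and 2 and disease replicates 3 and 5 (adjusted p 0.0753 to 0.218). A second split, chosen after seeing the data, used Pi16 and Dpp4 alone (7500 against 3387 barcodes). It also kept the barcodes with 2 or more Postn or Cthrc1 UMIs, which the first split left out. Col8a1 was then higher by 0.76 (SE 0.05), and 4 members were higher and 9 lower of 28 (17.2% of genes higher and 16% lower). The parts of these 2 changes in the larger Col8a1 difference were not tested. Median depth was higher in the Pi16, Dpp4 and Cd248 barcodes, at 5844 to 7045 UMIs against 4139 to 4609, and its part was not tested.

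Postn and Cthrc1 mark matrix-producing fibroblasts. Outside the former set, 87 barcodes (2 to 29 a library) held 2 or more UMIs of them, too few to test, and Col3a1 ranged there from 1069 to 6146 CPM. With 1 UMI enough, a rule chosen after seeing the data, 1455 barcodes were compared with the other 9432 (edgeR's quasi-likelihood test, 8.07% of genes higher and 5.97% lower), and 15 members were higher and 2 lower of 29. Col8a1 had 682, 1065, 1020, 907 and 1111 CPM against 288, 281, 351, 381 and 417 CPM (log2 difference 1.50, SE 0.08). Col9a2 (2.09, SE 0.26) and Col12a1 (1.69, SE 0.17) had larger differences, and Col16a1 (0.81, SE 0.07), Col3a1 (0.71, SE 0.12) and Col5a2 (0.68, SE 0.07) smaller ones. Col6a6 (-0.96, SE 0.11) and Col5a3 (-0.41, SE 0.12) were lower. Barcodes with a Postn or Cthrc1 UMI were deeper (medians of 6938 to 8706 UMIs against 5354 to 6202), and its part was not tested.

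Within mural barcodes, 110 (14 to 27 a library) were set apart by smooth muscle genes. Of 6 members tested against the other 233 barcodes, 5 were lower (edgeR's quasi-likelihood test, 12.2% of genes lower and 12.5% higher). Col6a1 had 10.7, 13.2, 38.4, 0 and 0 CPM against 171, 139, 137, 151 and 116 CPM (log2 difference -3.46, SE 0.43). Col6a2 (-1.87, SE 0.39), Col3a1 (-1.77, SE 0.51), Col4a2 (-0.72, SE 0.19) and Col4a1 (-0.71, SE 0.19) were lower, and Col1a2 was the exception at 0.34 (SE 0.22). Without control replicate 2, 3 members passed. Among endothelial barcodes, 49 with endocardial genes had Col4a4 at 268, 180, 290, 0 and 59.4 CPM (41 UMIs), while the 12199 without endocardial or lymphatic genes had 1.18 to 2.10 CPM and fibroblasts 70.0 to 87.7 CPM. Col4a3 had 82.6, 116, 87.0, 0 and 44.5 CPM there (19 UMIs) against 24.3 to 32.9 CPM in fibroblasts. With 5 to 17 such barcodes a library, these are values without a test.

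The disease comparison asked whether the hearts with 1 copy of Ctla4 differed in collagen transcripts. In fibroblasts 2 of 31 members passed and both were lower, Col5a3 and Col15a1, while types I, III and VIII had higher means without passing. Collagen UMIs were 0.846% and 0.880% of fibroblast UMIs in control and 0.825%, 1.14% and 0.994% in disease libraries. Disease replicate 3 lay below both controls and the other 2 above them (two-sided exact permutation test p = 0.4, where 0.1 is the smallest this design gives). No class gave an exact p under 0.2 for this share (adjusted 0.9 over 5 classes). Endothelial values were 0.164% and 0.174% against 0.139%, 0.146% and 0.157%, without overlap.

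Col5a3 had 175 and 199 CPM in control and 128, 130 and 123 CPM in disease fibroblasts. All 3 disease libraries lay below both controls, and the log2 difference was -0.60 (SE 0.10, edgeR's quasi-likelihood adjusted p = 0.0168). Col15a1 had 868 and 900.2 CPM in control and 660.1, 664 and 702 CPM in disease fibroblasts, again without overlap (-0.43, SE 0.10, adjusted p = 0.0426). Among all 13709 genes tested in fibroblasts 12.4% were called and 12% were lower, so 2 of 31 members is under the background share. Leaving out disease replicate 5 ended both calls (adjusted p = 0.101 for Col5a3), and leaving out disease replicate 3 ended that of Col15a1 (0.0721). Over the fits without 1 library the log2 difference was -0.67 to -0.54 for Col5a3 and -0.47 to -0.43 for Col15a1. Fits without a control replicate keep 1 control library, so only their differences are read. The median log2 difference was 0.08 over the members and 0.00 over all genes. At an unadjusted p under 0.05 there were 5 members, beside 27.7% of all genes. Groups did not overlap in 10 members, beside 47.9% of all genes.

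The major fibrillar genes varied among the disease libraries. Col3a1 had 1428 and 1504 CPM in control and 1503, 2580.0 and 2061 CPM in disease fibroblasts (log2 difference 0.44, SE 0.23, adjusted p = 0.290). Disease replicate 3 fell inside the control range, and replicates 4 and 5 were above it. Barcodes with a Postn or Cthrc1 UMI, described above, were 10.7% and 7.41% of control and 13.2%, 13.9% and 20.7% of disease fibroblasts. Without them Col3a1 had 1321 and 1470 CPM in control and 1468, 2123 and 1520 CPM in disease fibroblasts (0.24, SE 0.19), so replicate 4 alone stayed far above the controls. Col1a1 over all fibroblasts had its highest values in the same libraries but no overlap, with 1046 and 1081 CPM and then 1089, 1557 and 1305 CPM (0.26, SE 0.17). Col1a2 had 1029 and 1078 CPM and then 1163, 1708 and 1367 CPM (0.38, SE 0.18). Col8a1 had 342 and 362 CPM in control and 465, 487 and 615 CPM in disease fibroblasts, with no overlap (0.53, SE 0.16, adjusted p = 0.102), and DESeq2 called it (adjusted p = 0.0209, range over 14 alternatives 0.0209 to 0.391).

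Marker levels were read in the same barcodes. In the 1377 to 3298 fibroblast barcodes of a library, the summed fibroblast markers were at 26420 and 26560.0 CPM in control and 29901 to 31948 CPM in disease libraries. Mural markers summed to 264 and 241 CPM in control and 294 to 324 CPM in disease libraries, and Schwann markers to 43.3 and 43.0 CPM and then 50.6 to 61.2 CPM, both without overlap. Leukocyte markers summed to 68.3 and 177 CPM in control and 84.9, 351 and 150 CPM in disease fibroblasts. Their part in the differences was not tested. Without the barcodes that held Postn or Cthrc1 UMIs, an alternative added after seeing the data, the Col5a3 call held and Col15a1 had -0.43 (adjusted p = 0.0516, range over 14 alternatives 0.000439 to 0.592).

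In fibroblasts the disease differences ran with the base composition of transcript starts. Over the 21 members above 4 on the mean log2 CPM scale in fibroblasts, the log2 difference had a Spearman rho of -0.72 with the GC content of the first 300 transcript bases, and over 6669 genes above that level rho was -0.49. Other classes had such a relation too. Over members rho was -0.66 in endothelial barcodes (6 genes) and -0.79 in all retained barcodes together (18 genes). It was -0.19 in mural (10 genes) and -0.16 in Schwann barcodes (11 genes). Over all genes above that level the values were -0.45, -0.49, -0.31 and -0.40 in the same order. In leukocyte barcodes rho was -0.45 over all such genes, with 2 members among them. Genes share libraries and depth, so these are descriptions with no p. Col3a1 (48.3% GC) and Col8a1 (52.7%) stand at the high end of the differences, and Col5a1 (71.7%), Col4a1 (73.0%) and Col15a1 (74.7%) at the low end, while Col5a3, the lowest of the 21, has 65.0%. With this trend removed from all genes, Col5a3 had -0.36 (adjusted p = 0.157, range over 14 alternatives 6.92e-06 to 0.157) and Col15a1 -0.11 (adjusted p = 0.592), so no fibroblast member passed.

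**Figure D4:**
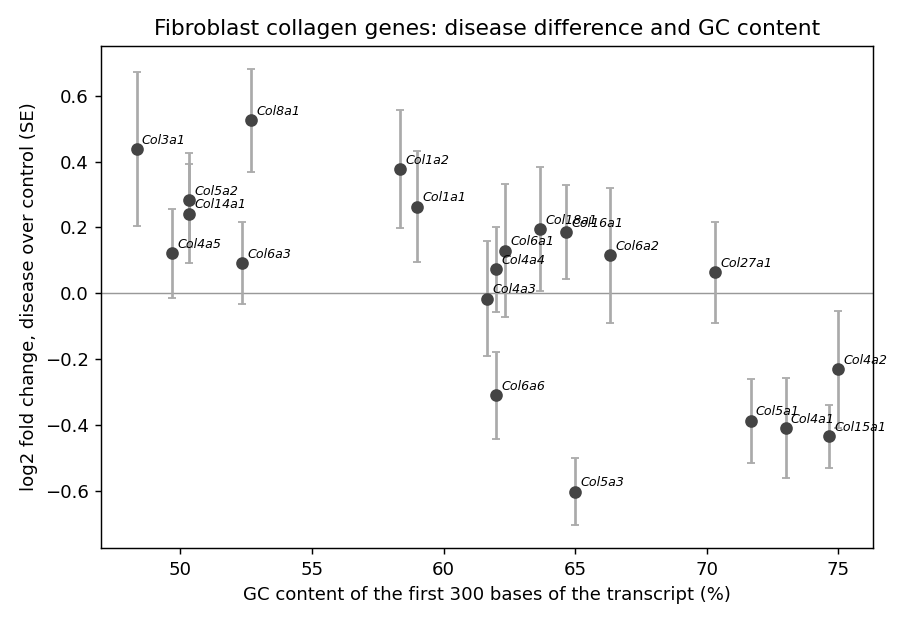
Log2 fold change of disease over control in fibroblast barcodes (vertical axis, bars are 1 SE) against the GC content of the first 300 transcript bases (horizontal axis) for 21 collagen genes above 4 on the mean log2 CPM scale. Genes near 50% GC lie above 0 and the 4 genes above 71% lie below it.

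In mural barcodes 1 of 10 members passed, beside 8.89% of 4914 genes. Col8a1 had 42.6 and 32.2 CPM in control and 68.2, 90.9 and 99.8 CPM in disease libraries, without overlap (log2 difference 1.14, SE 0.31, edgeR's quasi-likelihood adjusted p = 0.0475). It rests on 113 UMIs, and leaving out any 1 of the 3 disease libraries ended the call. Over the fits without 1 library the log2 difference was 0.97 to 1.40. Fits without a control replicate keep 1 control library, so only their differences are read. In the same barcodes endothelial markers summed to 1433 and 1358 CPM in control and 2239, 2690 and 2526 CPM in disease libraries, and cardiomyocyte markers to 348 and 252 CPM and then 104, 145 and 114 CPM. Their part was not tested. Col4a1 had 375 and 335 CPM in control and 195, 302 and 263 CPM in disease mural barcodes (-0.53, SE 0.22, adjusted p = 0.191).

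Endothelial barcodes had 1 call among 25 members, beside 12% of 12532 genes. Col5a2, the second chain of type V, had 8.17 and 7.01 CPM in control and 11.6, 12.4 and 13.4 CPM in disease libraries (log2 difference 0.66, SE 0.15, adjusted p = 0.0458, edgeR's quasi-likelihood test). Its level was 4.05% of that in fibroblasts, and the 8 fibroblast markers stood at 0.999% to 2.69% there. The 49 barcodes with endocardial genes held 40 of the 420 endothelial Col5a2 UMIs. They had it at 103 and 141 CPM in control and 232, 245 and 148 CPM in disease libraries, and their part was not tested. Col4a1 had -0.36 (SE 0.10, adjusted p = 0.0872) and Col4a2 -0.23 (SE 0.09), and neither passed, while DESeq2 called Col4a1 (-0.33, adjusted p = 0.0317, range over 13 alternatives 0.0317 to 0.901). The Col5a2 call was lost without any 1 of the 3 disease libraries, and with the GC trend removed (0.53, adjusted p = 0.0911). Its log2 difference was 0.55 to 0.78 over the fits without 1 library and 0.53 to 0.86 over all 13 alternatives. Fits without a control replicate keep 1 control library, so only their differences are read.

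**Figure D5:**
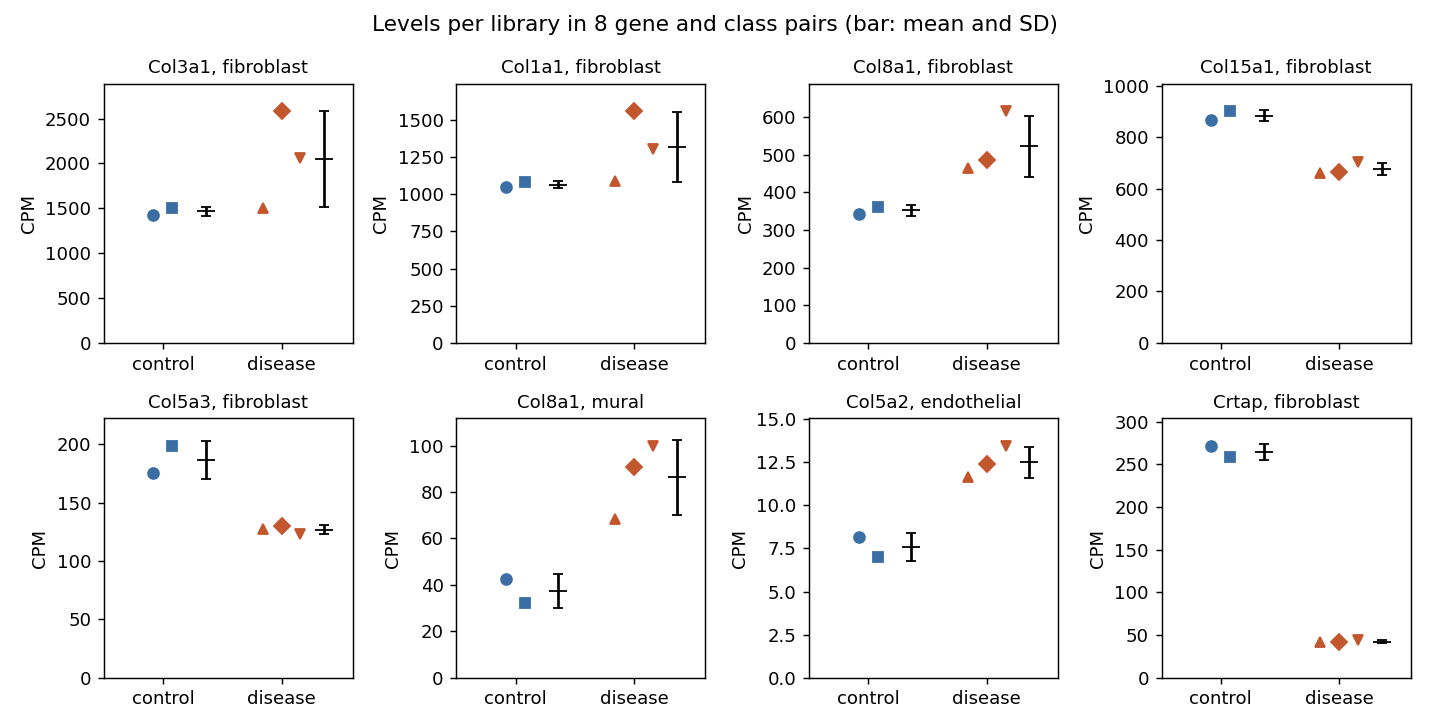
CPM in each library for 8 pairs of gene and class, control on the left and disease on the right of each panel, with the mean and SD of each group as a black bar. Col5a3, Col15a1 and Crtap in fibroblasts are lower in all 3 disease libraries, Col8a1 in mural and Col5a2 in endothelial barcodes are higher, and Col3a1 overlaps.

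No member passed in Schwann (11 tested, 3.55% of 1352 genes called), in leukocyte (18 tested, 5.58% of 12681 genes) or in all retained barcodes together (35 tested, 6.43% of 16195 genes) by edgeR's quasi-likelihood test. At an unadjusted p under 0.05 the counts were 0, 0 and 2 (14.3%, 16% and 16.1% of genes), and DESeq2 called 0, 0 and 1. The difference between classes in the disease effect was tested for mural against fibroblast, endothelial against fibroblast and mural against endothelial barcodes. Of 32 members 0 passed in each pair (edgeR, 0.0749%, 1% and 0.00749% of 13349 genes called), with 3, 2 and 4 at an unadjusted p under 0.05 (7.7%, 12.6% and 6.38% of genes). DESeq2 called 0 in each pair. The lowest adjusted p was that of Col3a1 for mural against endothelial barcodes (-1.17, SE 0.29, adjusted p = 0.201).

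The genes that build and bind collagen were read from lists of 30 processing genes and 10 receptors. In fibroblasts 7 of 29 processing genes tested were lower and 0 higher (12% of all genes lower), with a median log2 difference of -0.38 beside 0.00 for all genes. Crtap, the cartilage-associated partner of prolyl 3-hydroxylase, had 271 and 258 CPM in control and 41.4, 41.4 and 44.0 CPM in disease fibroblasts (log2 difference -2.69, SE 0.10, edgeR's quasi-likelihood adjusted p = 0.000351). P3h4 had 91.2 and 88.3 CPM and then 19.1, 16.3 and 16.4 CPM (-2.42, SE 0.12), and P3h1, the enzyme itself, 55.0 and 52.1 CPM and then 24.0, 25.2 and 24.2 CPM (-1.18, SE 0.10). All 3 belong to prolyl 3-hydroxylation or lysyl hydroxylation complexes of the endoplasmic reticulum. None of their disease libraries came near a control library.

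Other processing genes that fell in fibroblasts were Pcolce2, an enhancer of C-propeptide cleavage (-1.68, SE 0.11), P4hb, the beta subunit of prolyl 4-hydroxylase (-1.07, SE 0.15), Colgalt2, a galactosyltransferase (-0.74, SE 0.11), and Adamts3, an N-propeptidase (-1.49, SE 0.31). The Adamts3 call ended without disease replicate 4 or 5, at 95% gate purity and without Postn or Cthrc1 barcodes. That of Colgalt2 ended without disease replicate 5. Over the fits without 1 library the log2 difference was -1.81 to -1.30 for Adamts3, -1.14 to -0.96 for P4hb and -0.85 to -0.63 for Colgalt2. Fits without a control replicate keep 1 control library, so only their differences are read. In the other classes 2 of 13 processing genes passed in mural barcodes (8.89% of all genes), 5 of 25 in endothelial (12%), 2 of 23 in leukocyte (5.58%) and 0 of 5 in Schwann barcodes (3.55%), and each was lower. Crtap and P3h4 passed in mural and endothelial barcodes, with Crtap at -2.94 (SE 0.31) and -2.33 (SE 0.14). P3h1 (-1.07, SE 0.17), P4hb (-1.02, SE 0.15) and Colgalt2 (-0.51, SE 0.12) were the other 3 in endothelial barcodes. Crtap (-2.47, SE 0.32) and P4hb (-1.13, SE 0.23) passed in leukocytes, cells with few collagen UMIs. Itgb1, the beta 1 chain of the collagen-binding integrins, was lower in fibroblast (-1.15, SE 0.10), mural (-1.14, SE 0.19), endothelial (-1.08, SE 0.10) and leukocyte barcodes (-1.14, SE 0.21). It was the single receptor of 9 tested in fibroblasts that passed, beside 12.4% of all genes. The first 300 bases of these transcripts held 73.0% GC in Crtap and P3h1, 70.7% in P3h4 and Pcolce2, 76.3% in Itgb1, 70.0% in Colgalt2, 66.0% in P4hb and 45.3% in Adamts3. With the GC trend removed, fibroblast Crtap had -2.29, P3h4 -1.97, P3h1 -0.78, Pcolce2 -1.22, P4hb -0.77, Adamts3 -1.64 and Itgb1 -0.93, and all 7 still passed, while Colgalt2 had -0.29 (adjusted p = 0.161) and did not.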

How the data were processed

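Raw UMI counts per gene and barcode were deposited by the authors as 10x matrices, and the file headers name Cell Ranger 3.1.0; the submitters' processing notes name Cell Ranger 3, Seurat 3 and the builds mm10 and GRCh38. Filters applied before deposit are not given in the sources used here; the lowest barcode held 500 UMIs. Barcodes with at least 500 UMIs, 200 genes and no more than 10% of UMIs from mitochondrial genes were retained (12.4% to 32.5% removed per library). A barcode joined a class with UMIs of at least 3 of its markers and at least 80% of all marker UMIs of the 5 lists, so mixed barcodes were left out; no doublet caller was run. Members and lists were chosen with earlier results of these data known. Named were all members, and processing or receptor genes that passed.

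Counts were summed per library and class and tested with edgeR 4.0.16 (TMM scaling over all 5 classes for comparisons between them, filterByExpr, quasi-likelihood, Benjamini-Hochberg over all genes, threshold 0.05; SE is the log2 difference over the root of F); DESeq2 1.42.0 was an alternative. The fits were tested on simulated data. GC content came from GENCODE vM21 transcripts. CPM uses total class UMIs. PCR duplicates are removed by UMIs; floors of 3 counts cover counting error only.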

Additional observations from a re-analysis of the deposited data

Results flagged for a closer look

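Col9a1, a fibril-associated collagen below the limit of 100 UMIs, had 9 UMIs in disease replicate 3 and 0 in each of the other 4 libraries. The 9 UMIs lay in 8 barcodes, 7 of them retained. It stands here because the signal is outside the compared genes and both control libraries are at 0.

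Retained barcodes that no class took in (611 to 1417 a library) were left out of the comparisons. Collagen UMIs were 0.320% of their UMIs in disease replicate 4 and 0.294% in disease replicate 5, above the control values of 0.247% and 0.259%. Disease replicate 3 had 0.233%, below both. These barcodes had medians of 1550.0 to 2701 UMIs, and the difference was not tested.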

How the results depend on the processing

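No paired analysis was possible because control and disease libraries share no replicate number. Comparisons between the 5 classes kept their counts of called members within 1.5 times under every alternative run. Members called between disease and control, 2 in fibroblasts, 1 in mural and 1 in endothelial barcodes, changed under most alternatives, and the cause was not tested. In fibroblasts the count was 3 with DESeq2 (Col8a1 added), 1 with relative log expression scaling, with every gene with a count, with up to 25% mitochondrial UMIs, at 95% gate purity and without Postn or Cthrc1 UMIs, and 0 with the GC trend removed. In mural barcodes it was 0 with DESeq2, the GC trend removed, 25% mitochondrial UMIs and 60% purity. In endothelial barcodes it was 2 with DESeq2 and 0 with every gene with a count, the GC trend removed, 25% mitochondrial UMIs, 60% and 95% purity. For all retained barcodes DESeq2 called 1, and for mural against fibroblast effects every gene with a count gave 1. Leaving out 1 disease library gave 0 to 2 calls in fibroblasts (0 without disease replicate 5) and 0 to 0 in mural and endothelial barcodes. Disease fits without a control replicate keep 1 control library, so their calls are not given. Leaving out any 1 library gave 1 to 2 calls for the Csf1r against the Cd3 barcodes, and 3 to 5 for smooth muscle against other mural barcodes. It moved the disease minus control collagen share from -0.0345 to 0.0120 percentage points in mural and from -0.0773 to 0.117 in Schwann barcodes, both signs hanging on which control library stayed. The same range was 0.0465 (without disease replicate 4) to 0.204 (without disease replicate 3) in fibroblasts, and -0.000748 (without disease replicate 5) to 0.00223 in leukocytes. With class totals in place of TMM factors, added after seeing the data, the median gene moved from -0.00 to -0.32 for leukocyte against fibroblast barcodes (28.4% of genes higher and 49.9% lower) and from -0.14 to -0.03 for mural against fibroblast. Members then called were 3 higher and 13 lower for the Pi16, Dpp4 and Cd248 barcodes (Col6a1 lost, at 0.07), 2 and 9 for Pi16 and Dpp4 alone, and 14 and 2 for Postn or Cthrc1. The Schwann Col5a3 difference changed sign without disease replicate 3, 4 or 5, over a range of -0.0852 to 0.136. With the GC trend removed 3 uncalled differences changed sign, to 0.00032 for Col4a1 and 0.063 for Col5a1 in fibroblasts and 0.0036 for Col4a2 in endothelial barcodes. Mural and Schwann barcodes at 95% purity were not run, with under 20 barcodes in a library, a minimum not applied to the smooth muscle comparison (14 in disease replicate 3). Schwann and mural sums hold 330496 and 1716639 UMIs in all, which limits their values.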
